A study of Homo sapiens with 14 samples.

Results

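The SR proteins and the heterogeneous nuclear ribonucleoproteins (hnRNPs) are the 2 large families of RNA-binding proteins that set which exons of a pre-mRNA are joined. All protein-coding genes whose symbols start with SRSF or HNRNP were taken, pseudogenes left out, which gave 37 genes (12 SRSF and 25 HNRNP) of 20176 protein-coding genes in the annotation. SR proteins carry an arginine and serine rich domain, bind mostly exonic enhancers and recruit the U1 and U2 snRNPs, whereas many hnRNPs bind exonic or intronic silencers and keep exons out. Many genes of both families also splice their own transcripts into forms that are kept in the nucleus or destroyed by nonsense-mediated decay (NMD), often through a "poison" exon with an early stop codon, so that the level of the protein can restrain its own synthesis.

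The study followed senescence of IMR90, a line of human fetal lung fibroblasts, by sequencing polyA-selected RNA from near-confluent cultures. Young cells of the isolates I79 and I10 were compared with old cells of the same isolates, which had been passaged into replicative senescence. I79 cells treated with inflachromene (ICM), a small-molecule binder of the chromatin proteins HMGB1 and HMGB2, form a further group (I79 ICM), as do wild type cells (WT) and cells depleted of HMGB2 with siRNA (HMGB2 KD). The isolate of the WT and KD cells is not given in the sources used here, nor is the treatment of the WT cells. No dose or time of ICM was given in the labels. The labels list 2 replicates for each of the 7 groups, 14 samples in all. For WT, HMGB2 KD and ICM each replicate had values of its own, but each old or young group had 1 column of values, so I79 and I10 are the replicates of the old to young comparison (n = 2). Nothing in the labels says that replicates came from separate cultures, and p-values therefore measure the spread between these samples only.

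Reads on genes summed to between 33561766 and 41168932 per library in WT and HMGB2 KD, to between 14991385 and 20632959 per column in old and young, and to 13290131 and 10971132 in the ICM libraries. HMGB2 checked the knockdown, with 929 and 1021 reads in WT and 118 and 145 reads in KD (log2 fold change -2.99, SE 0.16, edgeR adjusted p = 8.3e-07). In old cells HMGB2 also fell (log2 fold change -1.64, SE 0.10, edgeR adjusted p = 0.0037), while CDKN1A, the cell cycle inhibitor p21, rose (2.48, SE 0.19, adjusted p = 0.0043). The summed level of 8 fibroblast markers was 12170 CPM or more in every column. That of 5 epithelial markers was 46.7 to 101.8 CPM, nearly all of it from the keratin genes KRT8 and KRT18. The endothelial markers summed to between 0.37 and 9.86 CPM. Of single members of the lists, the T cell marker CD3E, the endothelial marker CDH5 and the alveolar marker SFTPC were at 0 in all columns. The summed level of 5 immune markers was 21.6 and 158 CPM in young and old I79 cells and 23.5 and 85.0 CPM in young and old I10 cells, nearly all of it from the lysosomal protein gene CD68, and its part in the results below was not tested. The 3 kinds of table were counted in different ways, so WT and KD, old and young, and ICM are described in turn, and levels across tables are given side by side only.

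Per transcript length, HNRNPA1 was the most abundant of the 37 genes. HNRNPA1 encodes a shuttling hnRNP that represses exon inclusion, and it stood at 1496 TPM (transcript abundance scaled for transcript length and library size) in young and 618 TPM in old I79 cells, and at 1542 and 616 TPM in young and old I10 cells. Its mean of 1068 TPM over the 4 columns was followed by 564 TPM for HNRNPC, which binds uridine tracts, by 530 TPM for HNRNPK, which binds cytosine runs, and by 518 TPM for HNRNPA2B1. Among SR genes SRSF3 and SRSF5 led, with mean levels of 274 and 253 TPM. The neighbours HNRNPC, HNRNPK and HNRNPA2B1, and likewise SRSF3 and SRSF5, differed in the mean level by less than the spread of each over the columns. At the other end were SRSF12 with a mean of 0.31 TPM, HNRNPA1L3 with 0.025 TPM, and the retrogenes HNRNPCL1 and HNRNPCL2 at 0.

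Summed over all 37 genes, the level was 8730 TPM in I79 young and 4468 TPM in I79 old, and 8832 TPM in I10 young and 4588 TPM in I10 old. The HNRNP genes made up 6778, 3333, 6939 and 3408 TPM of these sums in the same order, and the SRSF genes 1952, 1136, 1893 and 1180 TPM. The young columns of the isolates lay close to each other for both families, and both old columns lay far below them.

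In old cells 14 of the 34 genes that passed the filter on low counts fell and none rose (edgeR quasi-likelihood test with isolate as covariate, adjusted p under 0.01 and a log2 fold change beyond 0.6). Over all 15134 genes tested 3.7% were called lower and 5.66% were called higher. The estimate was below 0 for 32 of the 34, with a median log2 fold change of -0.76 against -0.01 over all genes, and both old columns lay below both young columns for 29 of 34, which holds for 37.4% of all genes. At adjusted p under 0.05, 21 of the 34 were lower, against 12% of all genes. The fit has 1 residual degree of freedom, and without either young column no gene of the 15134 passed, the adjusted p of the 14 genes then lying between 0.041 and 0.069. TMM scaling (trimmed mean of M-values) centres the typical gene, and with plain library totals the median of all genes was -0.22 and that of the 34 genes -0.97. In bulk RNA a lower level in each cell and fewer cells with that level cannot be told apart.

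Among the SR genes SRSF1, SRSF2, SRSF3, SRSF6 and SRSF7 fell, 5 of the 12 tested. SRSF1, the founding SR protein, also known as ASF/SF2, had 308.8 CPM (counts scaled to library size after TMM) in young and 109.3 CPM in old I79 cells, and 302.8 and 129.5 CPM in young and old I10 cells (log2 fold change -1.36, SE 0.12, edgeR adjusted p = 0.0052). Its old values lay far below its young values in both isolates. SRSF3, the smallest SR protein and an adaptor of mRNA export, had 271.3, 114.6, 265.9 and 120.3 CPM in the same order of columns (log2 fold change -1.19, SE 0.11, edgeR adjusted p = 0.0050). SRSF2, the nuclear speckle protein SC35, had 198.3, 102.2, 193.9 and 85.7 CPM (log2 fold change -1.07, SE 0.11, edgeR adjusted p = 0.0062). For both genes the young columns were within a few CPM of each other and the old columns did not overlap them. SRSF7, a further export adaptor, had 111.9, 56.1, 108.3 and 61.9 CPM (log2 fold change -0.90, SE 0.11, edgeR adjusted p = 0.0074). SRSF6, known from the splicing of tau transcripts, had 188.6, 104.4, 179.9 and 105.3 CPM (log2 fold change -0.81, SE 0.10, edgeR adjusted p = 0.0083). The old values of SRSF6 and SRSF7 lay below all their young values in both isolates.

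The other SR genes did not pass the test. SRSF11 was level, with 230.1 and 225.9 CPM in young and old I79 cells and 237.0 and 237.5 CPM in young and old I10 cells (log2 fold change -0.01). SRSF5 was the one SR gene with higher TMM-scaled values in both old columns, 175.3 and 208.9 CPM in I79 and 164.6 and 192.9 CPM in I10 (log2 fold change 0.24, SE 0.10, edgeR adjusted p = 0.14). On its protein-coding transcripts alone the estimate was -0.02. The values of both genes depended on the scaling. By plain library totals SRSF11 had 246.3, 215.7, 255.7 and 214.2 CPM in the same order of columns, and SRSF5 had 187.6, 199.5, 177.6 and 174.0 CPM. SRSF4 and SRSF9 had estimates of -0.12 and -0.07. SRSF8, a retrogene of SRSF2 with 19.5 and 9.44 CPM in young and old I79 cells, had an estimate of -0.98, and SRSF10, which can repress splicing during heat shock and mitosis, had -0.66. SRSF12, a weakly expressed SR protein, had the largest estimate of all (-3.13, SE 0.66, edgeR adjusted p = 0.027), but it rested on 14 and 21 reads in the young columns and 1 and 3 reads in the old.

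Of the 22 HNRNP genes tested 9 fell. HNRNPM, a regulator of the splicing switch between epithelial and mesenchymal forms, fell furthest, from 225.1 CPM in I79 young to 59.4 in I79 old and from 226.6 in I10 young to 65.5 in I10 old (log2 fold change -1.86, SE 0.11, edgeR adjusted p = 0.0036). HNRNPAB, a relative of HNRNPD, had 140.5, 51.4, 138.0 and 57.9 CPM in that order (log2 fold change -1.35, SE 0.11, edgeR adjusted p = 0.0044). HNRNPR, known for its part in axonal mRNA transport, had 203.7, 80.6, 201.9 and 91.2 CPM (log2 fold change -1.24, SE 0.11, edgeR adjusted p = 0.0050). For these 3 genes no old column came near a young one.

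The A/B group holds the abundant core proteins of hnRNP particles, and 3 of its genes fell. HNRNPA1 had 1159 and 537.5 CPM in I79 young and old and 1171 and 556.8 CPM in I10 young and old (log2 fold change -1.09, SE 0.14, edgeR adjusted p = 0.0083). HNRNPA3 had 409.4, 178.5, 409.1 and 196.3 CPM (log2 fold change -1.13, SE 0.12, edgeR adjusted p = 0.0061). HNRNPA0, a gene without introns in its coding sequence, had 169.6, 99.7, 166.8 and 88.2 CPM (log2 fold change -0.84, SE 0.10, edgeR adjusted p = 0.0082). In all 3 the 2 young columns differed by less than the old columns did. HNRNPA2B1, a close relative of HNRNPA1, did not pass although its estimate of -1.21 was among the largest (SE 0.19, edgeR adjusted p = 0.014). Its young columns had 751.2 and 752.2 CPM and its old columns 262.5 CPM in I79 and 402.8 CPM in I10, so that the old isolates stood apart.

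HNRNPD, also known as AUF1, binds AU-rich elements of unstable mRNAs and had 239.2 and 110.1 CPM in young and old I79 cells and 235.0 and 112.7 CPM in young and old I10 cells (log2 fold change -1.09, SE 0.10, edgeR adjusted p = 0.0055). HNRNPH1, which binds runs of guanosines, had 381.9, 202.0, 392.6 and 199.4 CPM (log2 fold change -0.95, SE 0.11, edgeR adjusted p = 0.0076). HNRNPL, which binds CA repeats, had 206.7, 110.5, 204.5 and 117.6 CPM (log2 fold change -0.85, SE 0.10, edgeR adjusted p = 0.0080). The groups did not overlap in any of the 3. With counts derived from TPM, HNRNPH1 (-0.71, edgeR adjusted p = 0.015) and HNRNPL (-0.79, edgeR adjusted p = 0.011) no longer passed.

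The remaining HNRNP genes gave smaller estimates that did not pass. HNRNPUL1 had -0.70, HNRNPF -0.66, HNRNPDL -0.60, HNRNPU, a protein of the nuclear scaffold, -0.55, and HNRNPK -0.49. HNRNPH3, HNRNPH2, HNRNPA1L2, HNRNPUL2, HNRNPC and HNRNPLL lay between -0.45 and -0.21, and the readthrough gene HNRNPUL2-BSCL2 at 0.01. HNRNPC, next to HNRNPA1 in abundance, thus had 535.5 and 445.5 CPM in I79 and 559.4 and 436.5 CPM in I10. HNRNPA1L3, HNRNPCL1 and HNRNPCL2 had too few reads to be tested.

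**Figure D1:**
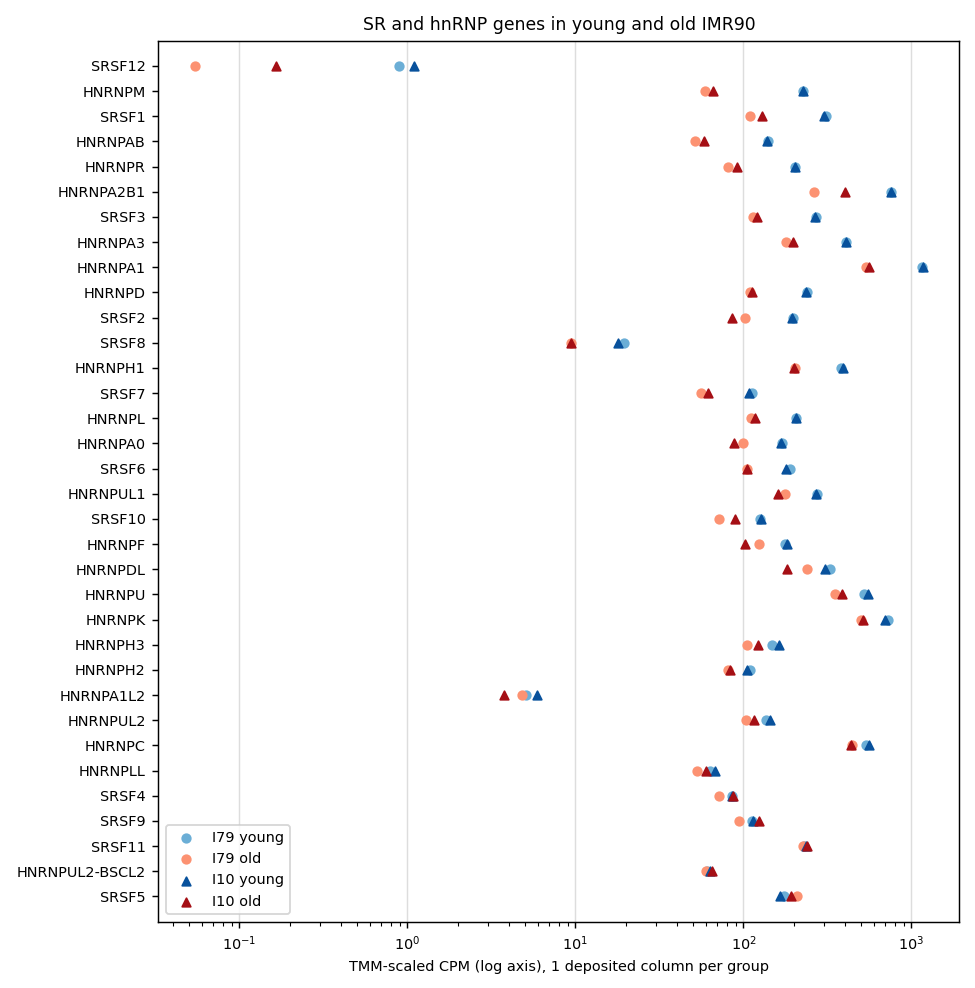
TMM-scaled CPM (log axis) of each tested SRSF and HNRNP gene in the young and old columns of I79 and I10, with 1 point per column and genes ordered by the log2 fold change of old against young. The young points of both isolates nearly coincide for most genes, and from HNRNPM to SRSF6 the old points lie to their left, whereas those of SRSF11 lie together and those of SRSF5 to the right.

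**Figure D2:**
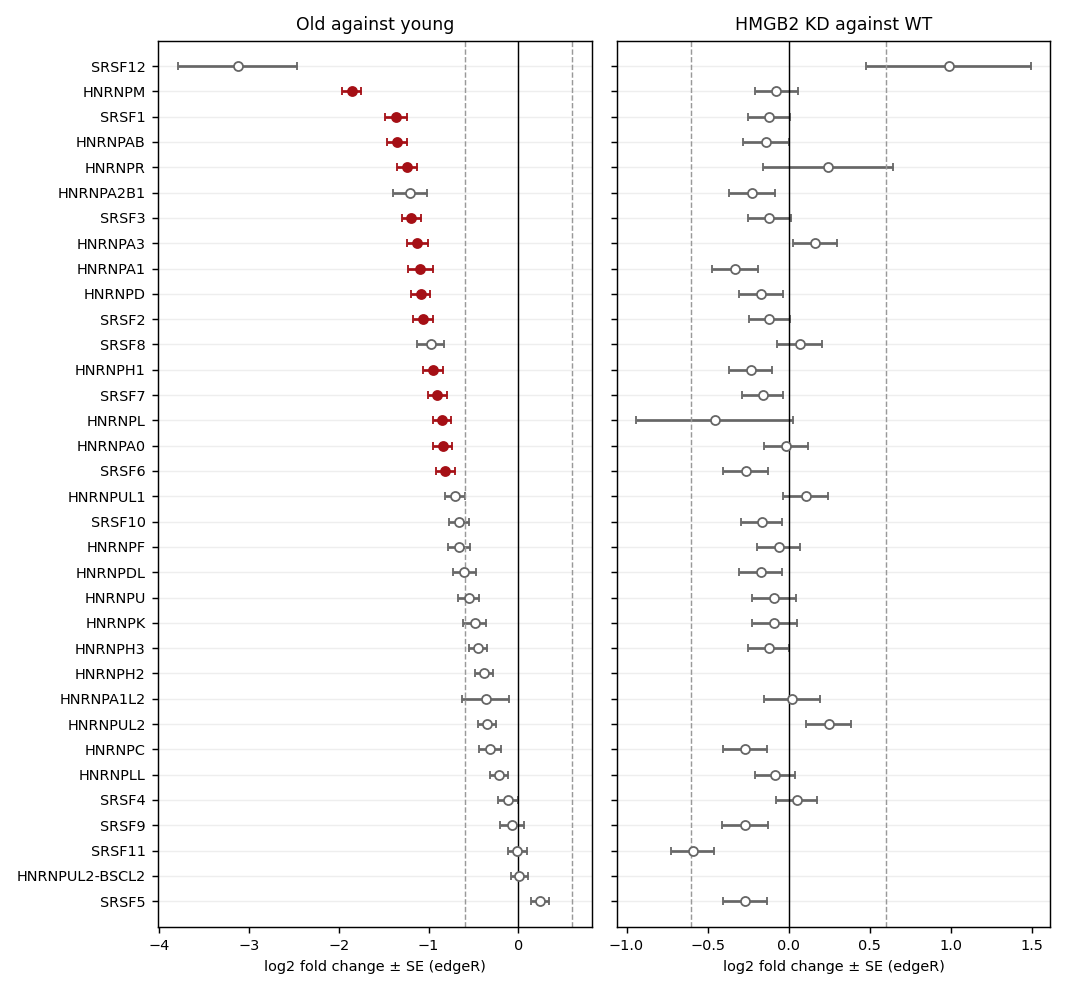
Log2 fold change with its standard error for each gene tested, in old against young cells (left) and HMGB2 KD against WT cells (right), in the order of the left panel, with filled points for genes that passed the test and dashed lines at a log2 fold change of 0.6 in either direction (HNRNPA1L3, tested in the KD comparison only, is not drawn). The 14 filled points on the left run from -1.86 for HNRNPM to -0.81 for SRSF6, and the right panel has no filled point.

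Cell cycle genes moved with these genes. Of 22 proliferation genes tested 18 fell in old cells, with a median log2 fold change of -2.16, and their summed level was 1849 and 417.4 CPM in young and old I79 cells and 2050 and 605.6 CPM in young and old I10 cells. The part of proliferation in the levels of the splicing factors was not tested.

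Other parts of the splicing machinery gave smaller medians than the SRSF and HNRNP genes. Of 38 genes of the U1, U2 and core spliceosome 5 fell, with a median log2 fold change of -0.55, among them SNRPF (-1.29, SE 0.15, edgeR adjusted p = 0.0071) and SNRPD1 (-1.23), subunits of the Sm ring, and SF3A3 (-0.85), a subunit of the U2 snRNP. Of 33 other RNA-binding splicing regulators 4 fell (median -0.45), among them the neuronal regulator NOVA1 (-1.87) and KHDRBS1 (-0.91), also known as SAM68. Of 15 NMD factors 1 fell, the exon junction protein RBM8A (-0.82). Over all 15134 genes tested 3.7% were called lower. None of the 18 SR-related proteins and kinases of SR proteins passed (median -0.22), and no gene of these lists rose.

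The old and young tables list reads per transcript, which allowed the share of each gene's reads on transcripts that are not annotated as protein-coding to be followed. The 37 genes have 395 transcripts in these tables, 201 protein-coding, 94 with a retained intron, 62 annotated as NMD targets and 38 without a defined coding sequence. These reads were assigned by estimation to transcripts that overlap each other, and the intervals given below are exact binomial 95% intervals that cover counting error only. All non-coding shares are shares of estimated counts.

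The stop codons and introns that set some of these transcripts apart are printed first, read from GRCh37 on the transcript's strand. The first 4 are the coding part of an exon that lies in an NMD transcript of the gene and in none of its protein-coding transcripts, from the first base of the exon to the stop codon, which is in capitals. The last is an intron kept in a transcript of HNRNPH1, with its first and last 2 bases, the splice site dinucleotides, in capitals. Exons like the first 4 in SRSF4-205, HNRNPL-202, HNRNPU-208 and HNRNPU-228 are not printed, and the shares of these transcripts are given with SRSF6.
SRSF3-203, chr6:36567598-36567631, plus strand: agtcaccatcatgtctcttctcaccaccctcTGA
SRSF7-204, chr2:38976461-38976488, minus strand: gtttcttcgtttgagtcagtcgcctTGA
SRSF6-202, chr20:42087793-42087944, plus strand: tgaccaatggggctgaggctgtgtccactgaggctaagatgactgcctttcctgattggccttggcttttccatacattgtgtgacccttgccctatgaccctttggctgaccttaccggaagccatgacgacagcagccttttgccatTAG
HNRNPLL-201, chr2:38805098-38805144, minus strand: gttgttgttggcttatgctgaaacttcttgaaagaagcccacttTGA
HNRNPH1-223, chr5:179048037-179048242, minus strand: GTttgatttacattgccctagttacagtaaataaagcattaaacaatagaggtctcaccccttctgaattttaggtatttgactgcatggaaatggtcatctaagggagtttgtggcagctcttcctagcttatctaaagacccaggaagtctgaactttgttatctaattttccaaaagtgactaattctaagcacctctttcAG

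Of all reads on the 37 genes, 16.7% lay on non-coding transcripts in young and 23.2% in old I79 cells, and 16.3% and 22.1% in young and old I10 cells. Over all protein-coding genes the shares were 7.51%, 7.59%, 7.57% and 7.35% in the same order. For the 12 SRSF genes the shares were 28.5%, 43.5%, 29.2% and 38.5%, all of them shares of pooled reads, in which genes with many reads weigh most. The median share over the SRSF genes was 15.3% and 28.5% in young and old I79 cells and 20.1% and 21.8% in young and old I10 cells, so that by this median the old and young columns of I10 lay close together. For the HNRNP genes without HNRNPUL2-BSCL2, whose single transcript is an NMD target, the pooled shares were 12.8%, 15.9%, 12.2% and 15.8%. Among the reads on the 37 genes, transcripts with a retained intron took 6.73%, 10.7%, 6.93% and 9.64%, and NMD targets 8.75%, 10.5%, 8.13% and 10.2%.

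Gene by gene, the share was tested as a log2 odds ratio of non-coding to coding counts for the 26 genes with enough reads of both classes. No gene passed by edgeR, neither among these 26, whose adjusted p was 0.47 or more, nor among all 6771 genes tested, of which 0% were called. Like the fit of gene levels, this fit leaves 1 residual degree of freedom. With so little replication, the absence of calls cannot show that the shares were unchanged. At an unadjusted p under 0.05, 9 of the 26 were higher in old cells, against 5.21% of all genes. Both old columns lay above both young columns for 16 of the 26, against 23.5% of all genes, and the median log2 odds ratio was 0.47 against 0.02 over all genes. With the Wald test of DESeq2, an alternative chosen after seeing the data, SRSF1, SRSF2, HNRNPD, HNRNPDL and HNRNPH1 passed with a higher share, 5 of 26 against 0.473% of all genes. A linear model on the log2 odds in limma, also chosen after seeing the data, called none.

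**Figure D3:**
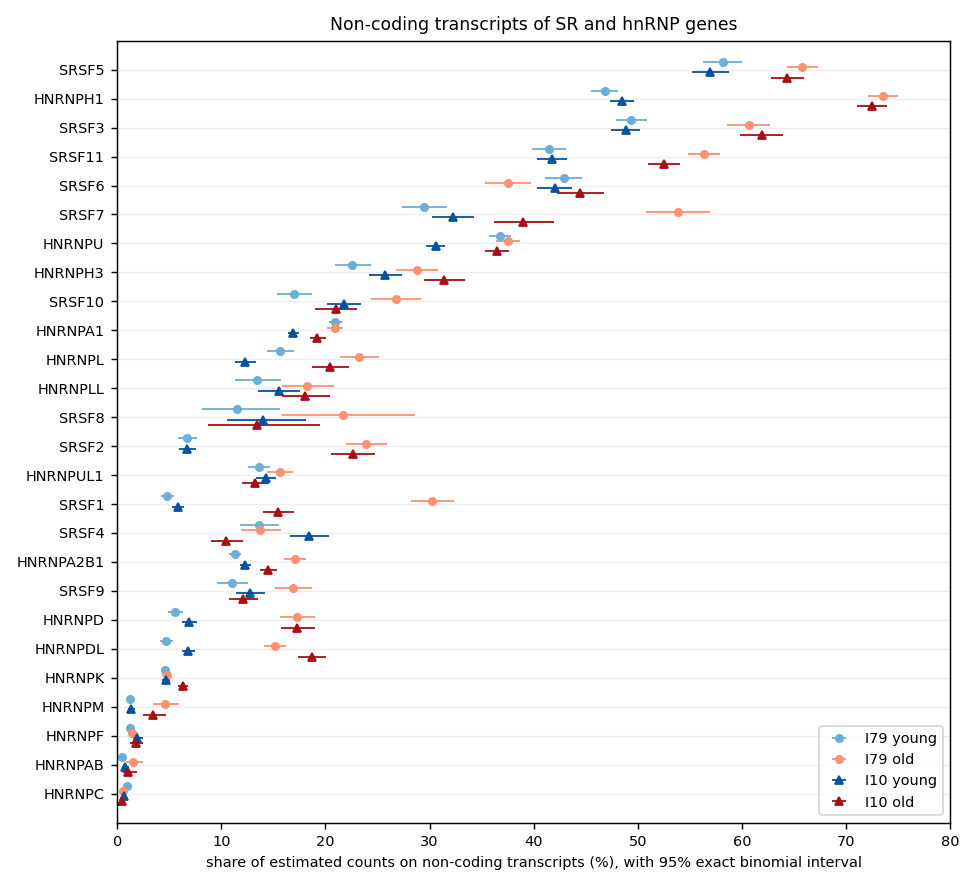
Percent of each gene's estimated counts on non-coding transcripts in the young and old columns of I79 and I10, with exact 95% binomial intervals that cover counting error only. The old points of SRSF1, SRSF2, HNRNPD, HNRNPDL and HNRNPH1 lie to the right of both young points, and those of SRSF6 do not.

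For SRSF1 231 of 4824 counts, 4.79% (4.20 to 5.43%), were on non-coding transcripts in I79 young and 30.3% (28.3 to 32.3%) in I79 old, and the shares were 5.82% (5.23 to 6.45%) and 15.5% (14.0 to 17.0%) in I10 young and old (log2 odds ratio 2.34, SE 0.47, DESeq2 adjusted p = 0.0023, edgeR adjusted p = 0.47). Both old shares were higher, and that of I79 was above that of I10. The transcript behind most of the difference was the NMD target SRSF1-204, with 0.2%, 18.2%, 0.6% and 7.4% of the gene's reads in the same order. SRSF1-204 ends its coding sequence at the same base as a protein-coding transcript and has a further intron after the stop codon, from the donor base 56082284 to the acceptor base 56081362 on the minus strand of chromosome 17. An intron that lies well past the stop codon is what the decay machinery reads as a sign of an early stop. On protein-coding transcripts alone the log2 ratio of old to young was -1.95 in I79 and -1.38 in I10, whereas on non-coding transcripts it was 1.16 and 0.18.

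SRSF2 had non-coding shares of 6.74% (5.89 to 7.69%) and 23.9% (21.98 to 25.9%) in I79 young and old and 6.72% (5.94 to 7.58%) and 22.6% (20.6 to 24.8%) in I10 young and old (log2 odds ratio 2.07, SE 0.23, DESeq2 adjusted p = 0.00015, edgeR adjusted p = 0.47). The isolates were nearly equal at both ages. Its NMD target SRSF2-208, which also keeps the regular stop codon and splices out an intron after it, held 0.8%, 7.1%, 0.9% and 8.9% of the reads, and SRSF2-206, which retains an intron, 3.1%, 8.9%, 3.6% and 10.1%. The protein-coding SRSF2-202 held 79.6%, 40.8%, 76.2% and 45.8%, and another protein-coding form, SRSF2-203, held 13.7%, 35.3%, 17.1% and 31.6%. A larger share of the reads in old columns thus lay on SRSF2-203, beside the non-coding forms, in both isolates.

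The poison exon of SRSF3, whose coding end is printed above, is 456 bases long (chr6:36567598-36568053). SRSF3-203, which includes it, held 4.13% of the gene's reads in young and 15.2% in old I79 cells, and 2.85% and 10.5% in young and old I10 cells. Over all its non-coding transcripts SRSF3 had 49.4% and 60.7% in I79 young and old and 48.8% and 61.9% in I10 young and old (log2 odds ratio 0.71, SE 0.22, unadjusted p = 0.034 and adjusted p = 0.48 by edgeR). Both classes of SRSF3 were lower in old cells. The log2 ratio of old to young was -1.61 in I79 and -1.57 in I10 on coding transcripts, and -0.95 and -0.80 on non-coding ones. The exon of SRSF7 is 449 bases long (chr2:38976040-38976488), and SRSF7-204 with it held 2.17%, 13.5%, 2.73% and 5.96% of the reads in the same order. A longer neighbour, SRSF7-208, held 25.7%, 38.5%, 28.4% and 30.8%. Old I79 cells had the highest share of both transcripts, and the log2 odds ratio of all non-coding transcripts of SRSF7 was 0.95 (SE 0.39, adjusted p = 0.53 by edgeR). The log2 ratio of old to young of SRSF7 was -1.61 in I79 and -0.96 in I10 on coding transcripts, and -0.13 and -0.53 on non-coding ones.

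SRSF6 had no such pattern. Its poison exon, of 268 bases (chr20:42087793-42088060), lies in SRSF6-202, which held a larger share of its gene's reads than the other transcripts with a printed exon. SRSF6-202 held 42.9% of the gene's reads in young and 37.5% in old I79 cells, and 42.0% and 44.5% in young and old I10 cells. The share was thus lower in the old column of one isolate and higher in that of the other, while the gene as a whole fell. Among transcripts whose exons are not printed, SRSF4-205 held 2.40%, 2.67%, 3.61% and 1.98% in the same order. HNRNPL-202 held 2.38%, 1.37%, 1.39% and 3.23%. HNRNPU-208 held 2.2%, 6.07%, 2.40% and 4.65%, and HNRNPU-228, with the same exon, held 2.80%, 0%, 1.85% and 4.0%. Of these only HNRNPU-208 was higher in the old column of both isolates.

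SRSF5 and SRSF11, whose gene totals did not pass, had high non-coding shares at both ages. SRSF5 had 58.2% and 65.8% in I79 young and old and 57.0% and 64.4% in I10 young and old, and its transcript with a retained intron, SRSF5-212, had 21.1%, 31.1%, 23.6% and 28.6%. SRSF11 had 41.5%, 56.4%, 41.7% and 52.5%, and SRSF11-214, with a retained intron, 25.7%, 38.4%, 26.0% and 34.2%. On protein-coding transcripts the log2 ratio of old to young was -0.45 and -0.29 for SRSF11 in I79 and I10, and -0.04 in both isolates for SRSF5. For SRSF11 the gene total, level after TMM scaling, was therefore made of a lower coding and a higher non-coding part (0.42 and 0.33).

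**Figure D4:**
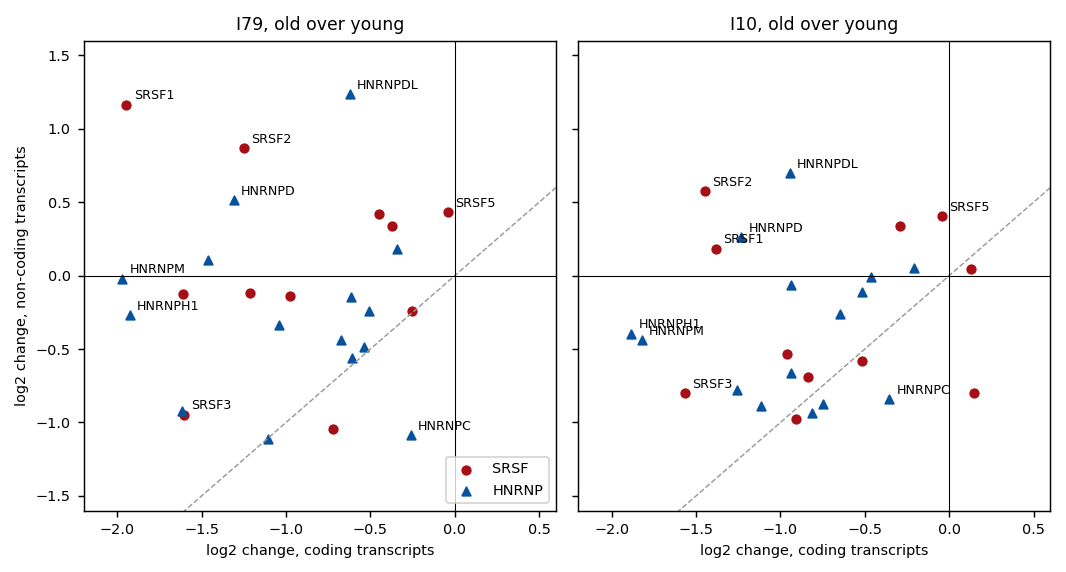
Log2 ratio of old to young on protein-coding transcripts (horizontal axis) and on non-coding transcripts (vertical axis) of each gene, for I79 and I10. SRSF1, SRSF2, HNRNPD and HNRNPDL lie in the upper left, with lower coding and higher non-coding levels in both isolates, whereas HNRNPH1 is below 0 on both axes.

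Among the hnRNPs HNRNPH1 had the highest non-coding share that was not fixed by its annotation. It had 46.8% (45.6 to 48.1%) and 73.5% (72.1 to 75.0%) in I79 young and old and 48.5% (47.4 to 49.6%) and 72.5% (71.0 to 74.0%) in I10 young and old (log2 odds ratio 1.57, SE 0.21, DESeq2 adjusted p = 0.0012, edgeR adjusted p = 0.47). HNRNPH1-223, which keeps the intron of 206 bases printed above, had 8.195%, 22.4%, 10.4% and 20.5% of the reads, and this intron is removed in 13 of the 19 protein-coding transcripts listed. The protein-coding HNRNPH1-204 had 33.05%, 20.3%, 34.2% and 19.1%. On protein-coding transcripts the log2 ratio of old to young was -1.93 in I79 and -1.88 in I10, larger than the -0.95 of the gene as a whole, and on non-coding transcripts it was -0.27 and -0.40.

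HNRNPD had 5.56% (4.85 to 6.35%) and 17.2% (15.6 to 19.0%) in I79 young and old and 6.92% (6.20 to 7.71%) and 17.3% (15.7 to 19.0%) in I10 young and old (log2 odds ratio 1.66, SE 0.24, DESeq2 adjusted p = 0.0049, edgeR adjusted p = 0.47). HNRNPD-210, with a retained intron, had 3.69%, 12.4%, 4.63% and 11.1% of the reads. HNRNPDL, a close relative, had 4.70% (4.14 to 5.32%), 15.2% (14.1 to 16.3%), 6.85% (6.22 to 7.53%) and 18.7% (17.35 to 20.04%) (log2 odds ratio 1.75, SE 0.21, DESeq2 adjusted p = 0.00036, edgeR adjusted p = 0.47). In both genes no old share came near a young one. Nearly all non-coding reads of HNRNPDL lay on the NMD target HNRNPDL-202 (4.2%, 14.9%, 6.5% and 18.6%), which keeps the stop codon of a protein-coding transcript and has introns after it. HNRNPDL did not pass as a whole gene, and on its protein-coding transcripts the log2 ratio of old to young was -0.62 in I79 and -0.95 in I10, against 1.24 and 0.70 on the non-coding ones.

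HNRNPM, the gene that fell furthest, had low shares throughout, 1.22% and 4.57% in I79 young and old and 1.36% and 3.46% in I10 young and old (log2 odds ratio 1.67, SE 0.29, DESeq2 adjusted p = 0.033, edgeR adjusted p = 0.47). HNRNPLL-201 includes the exon printed above, of 83 bases, and belongs to HNRNPLL, a relative of HNRNPL. It held 13.4% and 18.2% of the gene's reads in I79 young and old and 15.4% and 18.0% in I10 young and old. HNRNPC was the one tested gene with a lower share in the old column of both isolates, at 0.97% and 0.55% in I79 and 0.69% and 0.49% in I10. HNRNPA0, HNRNPA1L2 and HNRNPH2 have no non-coding transcript listed, and the retained intron form of HNRNPA3 had an estimated count of 0 in all columns, which allows a share of up to 0.0912% of its 3290 counts in I79 old.

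Over the 26 tested genes the share was higher in the old column of both isolates for 17, lower in both for 1 and opposite in the isolates for 8. The same count was not made over all genes. The estimate of the test was higher in old cells for 23 of the 26, against 51.2% of all 6771 genes. The median log2 ratio of old to young over the 26 genes was -0.85 on coding and -0.14 on non-coding transcripts in I79, and -0.87 and -0.42 in I10. Of 27 genes with at least 10 non-coding counts in each column, 8 had higher non-coding levels in the old column of both isolates. This was not counted over all genes either.

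The same shares were read for other parts of the splicing machinery. Of 26 genes of the U1, U2 and core spliceosome tested, 22 had a higher estimate in old cells and 16 had both old columns above both young ones, with a median log2 odds ratio of 0.57. Over all 6771 genes 51.2% had a higher estimate and 23.5% had both old columns above both young ones. Examples were SNRNP70, the U1 70K protein, with 46.4% and 82.7% in I79 young and old and 46.1% and 65.3% in I10 young and old, and SNRPA1, a U2 snRNP protein, with 16.5%, 66.0%, 14.1% and 32.6%. Of 24 other splicing regulators 20 had a higher estimate (median 0.39), for example TIAL1 with 30.4%, 53.9%, 27.6% and 57.6%. In the same list QKI had lower old values, 66.8%, 51.8%, 69.0% and 57.1%, as did PCBP2 with 7.31%, 4.49%, 8.16% and 5.09%. TRA2B, an SR-like protein with a known poison exon, had 54.1%, 70.2%, 49.4% and 59.4%, and 10 of 15 SR-related genes and kinases had a higher estimate (median 0.26), whereas SREK1 had lower old values, 84.6%, 74.9%, 87.7% and 81.8%. The medians of the 11 NMD factors and the 12 proliferation genes tested were 0.21 and 0.13. None of these genes passed by edgeR, and the 7 named here were picked after the values were seen.

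Whether depletion of HMGB2 alone changes the splicing factors was read from the HMGB2 KD and WT libraries. None of the 33 genes tested passed (edgeR, 797 of 15338 genes or 5.2% called), and DESeq2 also called none. At an unadjusted p under 0.05 there were 2 of 33, against 23.9% of all genes, both lower. The median log2 fold change was -0.12 against 0.00 over all genes, 25 of 33 estimates were below 0, and both KD libraries lay below both WT libraries for 19 of 33, against 26.4% of all genes. Proliferation genes did not pass either (0 of 23, median -0.01), and the WT libraries had 632.9 and 635 CPM of them in sum, the KD libraries 619 and 620.1 CPM. Of 8 fibroblast markers 3 rose and 1 fell in KD (summed level 17390 and 23550 CPM in WT, 27010 and 32900 CPM in KD), and the part of this in the values below was not tested.

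SRSF11, whose total was level between old and young after TMM scaling, gave the clearest value. The WT libraries had 271.6 and 288.6 CPM of it and the KD libraries 193.1 and 178.3 CPM, 280.1 ± 12.1 against 185.7 ± 10.4 (SD, n = 2), and the log2 fold change was -0.59 (SE 0.13, edgeR adjusted p = 0.011). The WT and KD values did not overlap, but the gene lay just short of both thresholds, and it passed with plain library totals (-0.66, edgeR adjusted p = 0.0050) and without the filter on low counts (-0.60, edgeR adjusted p = 0.00074). HNRNPA1 was at 981.2 and 903.4 CPM in the WT libraries and at 737.2 and 759.2 CPM in the KD libraries (log2 fold change -0.33, SE 0.14, unadjusted p = 0.034 and adjusted p = 0.16 by edgeR). SRSF5 was at 243.2 and 224.4 CPM in the WT libraries and at 205.1 and 182.6 CPM in the KD libraries (-0.27, edgeR adjusted p = 0.25).

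SRSF12 had the largest estimate (0.98, edgeR adjusted p = 0.26), from 20 and 18 reads in WT and 36 and 45 in KD. HNRNPL had -0.46 (edgeR adjusted p = 0.64) from 59 and 39 reads in WT and 51 and 25 in KD, and the sign turned without the second KD library (0.02). HNRNPL, HNRNPR with 41 to 68 reads, and HNRNPH2 with 0 to 3 reads were far lower in these tables than in the old and young tables, where the lowest value among them was 1482 reads. HNRNPH1, with 1336 to 1498 reads, was also lower there, at 34.9 to 47.5 CPM over the genes listed in all tables against 435.6 CPM in I79 young. HNRNPH2 and HNRNPL overlap other annotated genes, whereas HNRNPR and HNRNPH1 overlap none, and the part of the counting in these low values was not tested. HNRNPCL1, HNRNPCL2, HNRNPH2 and HNRNPUL2-BSCL2 had too few reads for a test.

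The ICM libraries were counted in yet another way, so in the ratio to I79 young cells the treatment and the counting cannot be told apart. No test was made, and WT cells were set against I79 young cells by the same steps as a gauge of what tables counted in different ways can give. WT was counted in another way than ICM, so the WT ratios do not measure the offset of the ICM counting. Of 36 genes compared, 28 were lower in ICM by more than 0.6 on the log2 scale, against 29.8% of all 13837 genes, and 3 were higher, against 29.5%. The median log2 ratio was -1.12 against -0.02 over all genes. For WT against I79 young, 9 of 36 were lower, against 22.1% of all genes, with a median of -0.29. Against WT in place of I79 young, 22 of the 36 were lower in ICM and 9 were higher, with a median of -0.79. Of all 13837 genes, 3918 were lower and 4096 higher with this control. HNRNPH1, HNRNPH2, HNRNPR and HNRNPUL2, which had low counts in WT, turned from lower to higher (1.15, 8.97, 5.72 and 1.03). I79 old against I79 young, which shares the young column, gave 25 lower and a median of -0.87. Of all 13837 genes 3577 were lower in that comparison, with a median of -0.16.

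HNRNPA1 had 55.1 and 54.2 CPM in ICM (scaled to the reads on genes listed in all tables), against 1322 CPM in I79 young and 1064 and 979.2 CPM in WT (log2 ratio of ICM to I79 young -4.60). In the ICM libraries 37.3% and 38.0% of the reads on HNRNPA1 and its pseudogenes lay on the pseudogenes, and with these added to the parent the ratio was -3.92. HNRNPA3 likewise had 34.0% and 34.3% on pseudogenes, and its ratio was -2.13 without and -1.53 with them. In all other columns these pseudogene shares were at most 0.93%. Only 2 pseudogenes of HNRNPA1 and 1 of HNRNPA3 are listed for the ICM libraries, against 74 and 16 for the other columns. The shares and the ratios with pseudogenes added therefore cover unlike sets of copies.

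HNRNPDL had 59.6 and 65.6 CPM in ICM, 371.2 CPM in I79 young and 274.9 and 268.9 CPM in WT (log2 ratio -2.57). SRSF11 had 61.6 and 59.9 CPM in ICM, 262.5 CPM in I79 young, 229.4 CPM in I79 old and 294.6 and 312.8 CPM in WT (log2 ratio -2.11). SRSF6 had 63.6 and 68.2 CPM in ICM, 215.1 CPM in I79 young and 245.4 and 258.9 CPM in WT (log2 ratio -1.71). For these genes both ICM values lay below every old, young and WT value. SRSF1, SRSF3 and HNRNPD had log2 ratios of -1.61, -1.59 and -2.10, whereas SRSF9 (0.01) and SRSF8 (0.24) were close to I79 young. Set beside I79 old against I79 young, the ratio was -1.03 in ICM and -2.09 in I79 old for HNRNPM, and -0.73 and -1.62 for HNRNPAB. For HNRNPA2B1 it was -1.48 and -1.69, and for SRSF1 -1.61 and -1.67, so that these 4 genes, picked after their values were seen, did not share 1 relation between the groups. HNRNPA1L2, HNRNPCL1 and HNRNPCL2, copies of HNRNPA1 and HNRNPC that share sequence with their parents, were the 3 genes with higher values, and reads of near-identical copies are uncertain here.

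**Figure D5:**
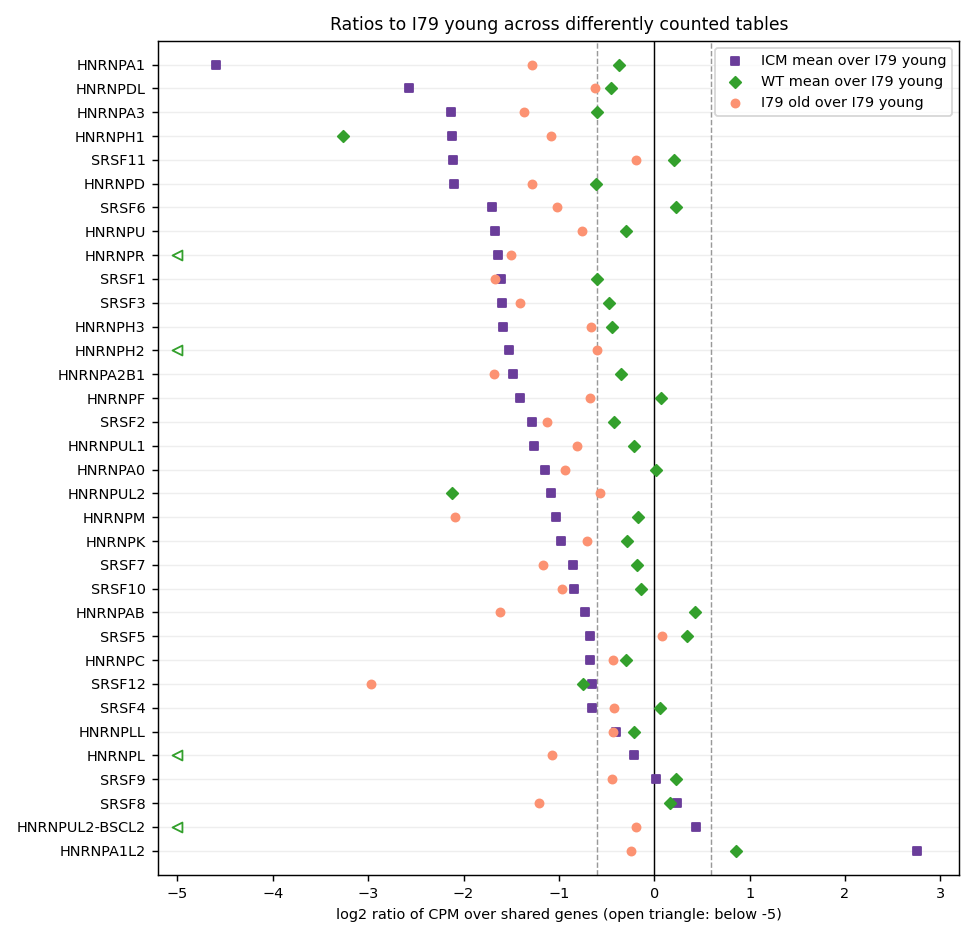
Log2 ratio of CPM to I79 young for ICM and, by the same steps, for WT and I79 old, per gene, without HNRNPCL1 and HNRNPCL2. Open triangles mark WT ratios below -5, and for HNRNPDL, SRSF11 and SRSF6 the ICM points lie far below the WT and the I79 old points, whereas for SRSF9 the ICM point is at 0.01.

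By the same limit of 0.6, 29.8% of all 13837 genes were lower in ICM. Of 18 SR-related genes and kinases 13 were lower in ICM (median -1.09, against 0.04 for WT). Of 38 core spliceosome genes 22 were lower (median -0.71, against -0.18 for WT), and of 34 other splicing regulators 24 (median -0.91, against -0.25). Of 8 fibroblast markers 4 were lower in ICM (median -0.75, against -0.69 for WT), and the part of this in the ratios was not tested. The proliferation genes had a median of -3.87 in ICM and -2.02 in WT, with summed levels of 168.5 and 161.7 CPM in the ICM libraries. These medians are descriptions and carry the same limit of the counting.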

How the data were processed

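RNA of IMR90 cells was sequenced from polyA-selected TruSeq libraries. The authors deposited 3 kinds of table, with raw read counts per gene symbol (WT, HMGB2 KD), fractional estimated counts per gene and region (ICM), and estimated counts and TPM per transcript, 1 column per group (old, young). The study's methods describe mapping with STAR (2.6.0c in the submitters' processing notes) to the GRCh37 build and unique counts per gene by featureCounts. The tool behind the estimated counts of the transcript and ICM tables is not given in the sources used here. Summary lines that name no gene (16.9 to 18.0% of the WT and KD reads) were left out. Transcript counts were summed per gene, with the biotypes of GENCODE v44 on GRCh37, and rounded. ICM reads were used as CPM.

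Fold changes came from edgeR 4.0.16 in R 4.3.3 (quasi-likelihood test, TMM, filterByExpr, Benjamini-Hochberg over all genes), with isolate as covariate for old against young, and genes were called at adjusted p under 0.01 and a log2 fold change beyond 0.6, the thresholds of the study's methods. The non-coding share was tested with a class by age term over genes with a mean of at least 10 estimated counts in each class. ICM ratios used a prior count of 2 and had no test. The scripts were tested on simulated data. DESeq2, limma, other scalings and filters, a replicate block and leaving out each library were alternatives. Depth was 10971132 to 41168932 reads per column, and binomial intervals cover counting error only. Replicates of WT and of KD differed beyond sampling noise (chi-square per degree of freedom 26.7 and 41.0).

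Any SRSF or HNRNP gene could be named, with values in every library for genes that passed, for the 5 largest estimates of each fit and for the 5 largest non-coding shares. List genes could be named where they passed and were among the 3 largest. The genes and lists were chosen with earlier results of these data known. Sequences were read from GRCh37.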

Additional observations from a re-analysis of the deposited data

Results flagged for a closer look

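Some genes moved in opposite ways in the isolates. These differences were not tested, since each isolate has 1 column per age. SRSF9 had a log2 ratio of old to young of -0.27 in I79 and 0.12 in I10. The non-coding share of SRSF6 changed by -5.37 points in I79 and by 2.45 points in I10, that of SRSF10 by 9.75 and -0.75 points, and that of SRSF8, which has few reads, by 10.2 and -0.58 points. SRSF4 changed by 0.12 and -7.93 points, SRSF9 by 5.82 and -0.68 points, and HNRNPA1 by -0.056 and 2.31 points.

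Reads on pseudogenes, which were added to the parent genes in an alternative only, took 37.3% and 38.0% of the reads on HNRNPA1 and its pseudogenes in the ICM libraries and 34.0% and 34.3% of those on HNRNPA3.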

How the results depend on the processing

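In KD against WT none of the 33 genes passed in edgeR, and 1 passed with library totals and 1 without the filter on low counts, SRSF11 in both. DESeq2, DESeq2 size factors and 1 RUVs factor gave 0, as did every fit without a library (0 to 0). The deviations of the first WT and first KD library from their group means correlated at 0.12. With 2 libraries per group the second libraries only mirror this value, so it cannot decide whether the numbers pair the samples. The labels do not say that a number marks a shared batch, and no pairing was used in the main fit. With the replicate number as a block 0 of the genes passed, and 1243 genes in all against 797. Leaving out a library gave 147 (without the second KD library) to 838 genes in all. Of the list genes 1 passed with library totals, against 0. HNRNPL ran from -1.14 without the first to 0.017 without the second KD library.

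In old against young 14 genes passed, 24 with library totals, 21 without the filter and 21 at adjusted p under 0.05, 18 in DESeq2, 16 without isolate, 13 with counts from TPM and 14 with pseudogene reads added (an alternative chosen after seeing the data). Leaving out a column gave 0 (without I79 young or without I10 young) to 19. Over all genes 1416 passed, 3148 with library totals (1026 higher, 2122 lower, against 856 and 560), 4257 without the filter, 2159 in DESeq2 and 3846 at adjusted p under 0.05. Of the list genes 28 passed, 74 with library totals, 62 without the filter, 49 in DESeq2 and 56 at adjusted p under 0.05. On protein-coding transcripts SRSF5 had -0.023. For the non-coding share DESeq2 called 5 genes against 0, and the other alternatives 0. In ICM 31 genes lay beyond 0.6 (30 to 31 without a replicate, 29 on coding and non-coding regions), 28 lower and 3 higher, against 22 lower and 9 higher (31) with WT as control. Over single genes, 267 values kept direction and side of the threshold, 9 gained and 30 lost the threshold, and 2 reversed. Depth limits SRSF12, HNRNPL and HNRNPR in KD. The causes of these differences were not tested.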
